A study of Mus musculus with 4 samples.

Results

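The collagen chain genes were described in cells that carried FAP, a surface protease of activated stromal cells, taken by cell sorting from pancreatic ductal adenocarcinoma that arises spontaneously in mice, and divided by CD34, a surface sialomucin of progenitor and some stromal cells. The 2 groups were FAP+ CD34+ and FAP+ CD34- cells, with 2 libraries each, which the titles call biological replicates and the design text places in duplicate experiments. Both groups shared the tumour model and the C57BL/6 background, and what the labels used here leave unstated are the alleles of the model, the age of the mice and the number of mice behind a library. The p-values measure only the spread between these libraries. RNA was amplified with MessageAmp, which primes at the poly(A) tail, before sequencing and read counts per gene were deposited. The chains were taken by name: every gene of the count table called Col, a type number, a and a chain number, which gave 43 of 22609 genes (Col26a1, listed under its older name Emid2, is not among them). They fell into 11 fibrillar chains, 9 fibril-associated chains with interrupted helices (FACIT), 6 basement membrane chains of type IV, 6 microfibrillar chains of type VI, 3 short-chain network chains, 2 multiplexins, 4 transmembrane chains and 2 others.

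Collagens are proteins of 3 chains wound into a right-handed helix, which needs glycine at every repeat and hydroxylated proline for its stability. Fibrillar types assemble side by side into banded fibres, FACIT types decorate the surface of those fibres, type IV forms the sheet-like network of basement membranes, and type VI forms beaded filaments close to cells. Fibroblasts are the main source of the dense collagen of pancreatic tumours.

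The 4 libraries held 10322354 and 13649942 counts (CD34+) and 13218444 and 14633561 counts (CD34-). Levels are given as CPM, counts scaled by the library total. Cd34 was 143 and 293 against 18.3 and 23.9 CPM and Fap 79.0 and 39.8 against 142 and 136 CPM in the order CD34+ against CD34-, so that Cd34 followed the labels, and Fap was present in every library and lower in both CD34+ libraries. Of the 10 fibroblast markers, Cd34 and Pdpn (741 and 501 against 184 and 374 CPM) were higher in both CD34+ libraries, as 23.4% of all tested genes were. Fap and Pdgfrb (296 and 330 against 599 and 486 CPM) were lower in both, as 26.6% were. The others overlapped and were present in all libraries, among them Pdgfra (234 and 324 against 259 and 285 CPM), Dcn and Vim. Myeloid markers summed to 132 and 101 against 68.5 and 55.2 CPM, mesothelial markers to 616 and 437 against 512 and 300.4 CPM, lymphoid markers to 22.1 and 4.62 against 1.82 and 0.957 CPM, adipocyte markers to 63.4 and 32.4 against 47.6 and 13.3 CPM, Schwann cell markers to 27.9 and 30.8 against 29.0 and 19.3 CPM and acinar and islet markers to 10.3 and 27.0 against 14.8 and 11.5 CPM. Sox10 was at 0 in 3 libraries, Amy2a5 in all 4, and Cd3e in both CD34- libraries. In CD34+ replicate 1 most of the lymphoid sum was Cd3e alone (18.99 CPM), with Cd3d at 0.0969 and Cd2 at 0.388 CPM. Most of the adipocyte sum was Fabp4 in every library (61.81 and 30.18 against 46.53 and 11.82 CPM). The lymphoid and adipocyte sums are therefore not a measure of lymphocyte or adipocyte content. The part of any of these cell types in the collagen values was not tested.

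Collagen chains took a similar share of the libraries in both groups, slightly lower in CD34+ cells, and most of these counts came from types I and III. Of all counts, the 43 chains made up 4.72% (Wilson 95% interval 4.71% to 4.73%) and 4.06% (4.05% to 4.07%) in CD34+ replicates 1 and 2, and 5.52% (5.50% to 5.53%) and 4.78% (4.77% to 4.79%) in CD34- replicates 1 and 2. Both CD34+ libraries lay below both CD34- libraries, at 4.39 ± 0.468% against 5.15 ± 0.522% (SD, n = 2 each), a gap of 0.757 percentage points, and CD34+ replicate 1 lay close to CD34- replicate 2. The intervals cover counting error only, since amplified copies are not independent molecules. Col1a1, Col1a2 and Col3a1 together held 73.5% and 75.5% of the collagen counts in CD34+ cells against 66.9% and 65.9% in CD34- cells, and per gene length (RPKM) 77.1% and 78.1% against 70.1% and 68.7%, so that the remaining chains had a larger part in CD34- cells. In these sorted pools, fewer cells of a type and less RNA per cell cannot be told apart.

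**Figure D1:**
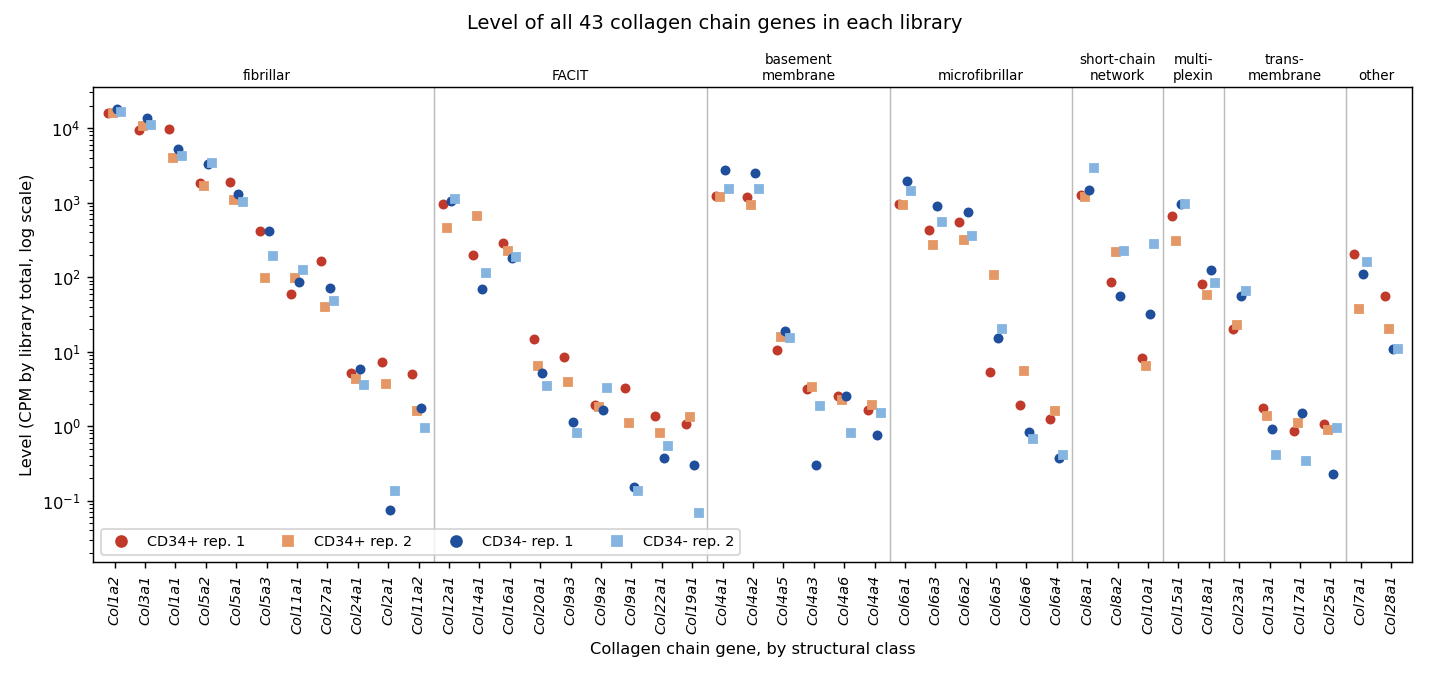
Level of each of the 43 collagen chain genes (CPM by library total, log axis) by structural class. Red circles and orange squares are CD34+ replicates 1 and 2, dark blue circles and light blue squares CD34- replicates 1 and 2; levels run from 18149 CPM (Col1a2, CD34- replicate 1) to 0.0683 CPM (Col19a1, CD34- replicate 2).

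Across chains the differences went both ways. Fold changes on the log2 scale were positive for 24 chains and negative for 19, and their median was 0.15 beside -0.02 over all 13875 tested genes. The median of the chains turned negative on the scales of the deposited RPKM (reads scaled to gene length and library depth) and FPKM (the same for fragments), and without CD34+ replicate 1. In 14 chains (32.6%) both CD34+ libraries lay above both CD34- libraries in CPM, and in 13 (30.2%) below; the same held for 23.4% and 26.6% of all tested genes. At an unadjusted p of 0.05 (edgeR quasi-likelihood test), 9 of the 43 chains were higher in CD34+ cells and 5 lower, beside 9.81% and 6.65% of all genes. Col2a1, Col6a4, Col9a1, Col19a1 and Col22a1 passed the filter of this fit through the CD34+ libraries alone and could only be higher. All 5 are among the 14 chains with both CD34+ libraries above, and all but Col22a1 are among these 9. The counts of higher chains are therefore a description only. After adjustment over all genes 0 chains passed (0% of all genes did), with adjusted p from 0.155 to 0.966. DESeq2 called 5 chains higher (Col2a1, Col9a1, Col9a3, Col14a1 and Col28a1) and 2 lower (Col10a1 and Col23a1), out of 40 with an adjusted p, beside 2.58% and 1.46% of all genes. Without a filter on low counts, edgeR called 4 of these higher (all but Col28a1) and both lower, beside 0.924% and 0.653% of all genes. Fold changes are CD34+ over CD34- from the edgeR fit.

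**Figure D2:**
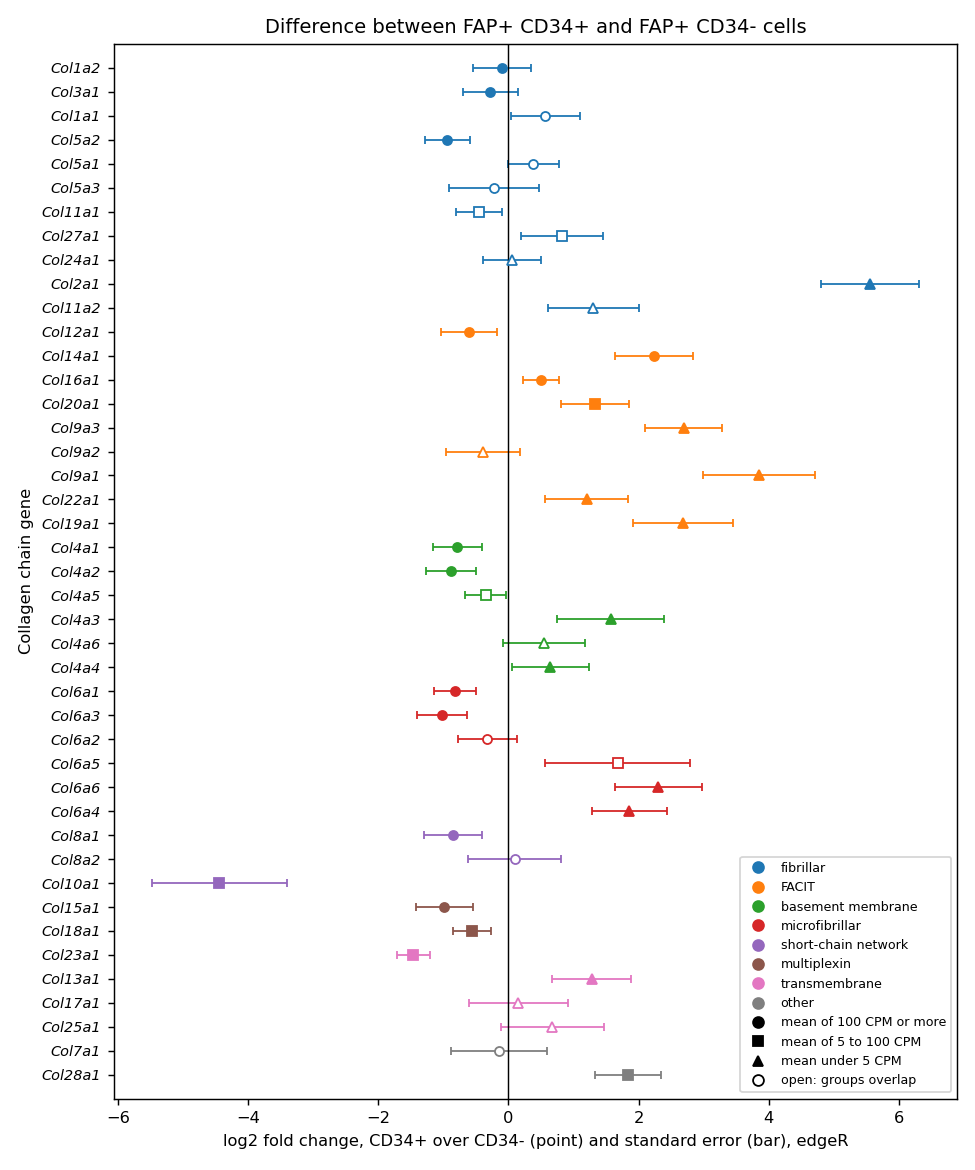
Log2 fold change, CD34+ over CD34-, of each collagen chain gene (edgeR point estimate, bar 1 standard error, 2 libraries per group), coloured by class. Circles, squares and triangles are chains with a mean of at least 100, of 5 to 100 and of under 5 CPM, and open symbols are chains whose groups overlap; Col2a1 lies highest at 5.56 and Col10a1 lowest at -4.44.

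Fibrillar chains form the load-bearing fibres, and the 3 that dominate them gave no difference beyond the spread between libraries. Col1a2, the alpha 2 chain of type I, was 15839.8 and 15933 CPM in CD34+ against 18149 and 16244 CPM in CD34- cells (log2 fold change -0.09, SE 0.45, adjusted p = 0.932, edgeR). Col3a1, the single chain of type III, which is laid down with type I in young and healing tissue, was 9290.4 and 10745 CPM in CD34+ against 13614 and 11066 CPM in CD34- cells (log2 fold change -0.28, SE 0.43, adjusted p = 0.762). Both chains were slightly lower in every CD34+ library, by less than the standard error of the fit. Col1a1, the alpha 1 chain of type I, was 9558 and 3979 CPM in CD34+ against 5165 and 4185 CPM in CD34- cells (log2 fold change 0.57, SE 0.53, adjusted p = 0.610). CD34+ replicate 1 stood apart, the other 3 libraries lay within a narrow range, and without CD34+ replicate 1 the sign turned (-0.24), as it did on the FPKM scale (-0.33).

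The 250 bases upstream of the RefSeq start of Col1a2 and of Col3a1 are shown because Col1a2 ranked highest of the 43 chains by RPKM in all 4 libraries and Col3a1 ranked 2 or 3; capitals mark the TATA box motif TATAAA, the CCAAT box motif and the GC box motif GGGCGG on either strand. They come from RefSeq tables of build GRCm38.p6, at chr6:4505368-4505617 (+ strand) and chr1:45311288-45311537 (+ strand), another build than the mm9 of the counts. Col1a2 holds 1 CCAAT box and 2 GC box motifs, and Col3a1 holds 1 TATAAA.
Col1a2: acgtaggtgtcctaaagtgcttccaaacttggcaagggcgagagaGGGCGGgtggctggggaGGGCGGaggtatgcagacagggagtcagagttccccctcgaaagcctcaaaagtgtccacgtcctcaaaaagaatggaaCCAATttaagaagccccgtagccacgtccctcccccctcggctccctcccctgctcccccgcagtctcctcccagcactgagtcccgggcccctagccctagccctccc
Col3a1: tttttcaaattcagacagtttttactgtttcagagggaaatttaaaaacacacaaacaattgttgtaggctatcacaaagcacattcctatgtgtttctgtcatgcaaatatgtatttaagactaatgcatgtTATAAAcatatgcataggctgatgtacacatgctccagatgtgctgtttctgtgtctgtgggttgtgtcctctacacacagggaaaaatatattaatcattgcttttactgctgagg

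Type V collagen, which starts fibrils and limits their width, split by chain. Col5a2 was 1804 and 1662 CPM in CD34+ against 3338 and 3390.4 CPM in CD34- cells (log2 fold change -0.94, SE 0.35, adjusted p = 0.277, edgeR). The groups were separated by far more than the replicates of either, and its sign was negative in all 16 alternatives. The kept sign adds little, since leaving out a library can hardly turn the sign where the groups are separated. The RPKM and FPKM scales also moved the median of all tested genes to between -0.42 and -0.31. Col5a1 was 1881 and 1082 CPM in CD34+ against 1294 and 1023 CPM in CD34- cells (log2 fold change 0.39, SE 0.39, adjusted p = 0.638), with overlap and a sign that turned in 5 of 16 alternatives. Col5a3, the chain of the rarer V trimer, was 411 and 96.2 CPM in CD34+ against 421 and 194 CPM in CD34- cells, and replicate 2 was lower than replicate 1 in both groups. Per length, the ratio of Col5a1 to Col5a2 in RPKM was 0.821 and 0.513 in CD34+ and 0.305 and 0.238 in CD34- libraries, and on the FPKM scale 1.17 and 0.772 against 0.490 and 0.420. It was the one ratio of the 9 compared whose CD34+ libraries both lay above both CD34- libraries on either scale, and the groups' mean log2 ratios differed by 1.27 (RPKM); 2 against 2 libraries cannot reach an exact permutation p below 0.333. In the other direction, Col3a1/Col1a2 had both CD34+ libraries lower by RPKM (0.542 and 0.623 in CD34+ and 0.693 and 0.630 in CD34- libraries) and Col5a3/Col5a1 by FPKM (0.307 and 0.145 against 0.600 and 0.409), each with overlap on the other scale.

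The ratio of Col1a1 to Col1a2, whose chains join 2 to 1 in the main type I trimer, was 0.661 and 0.273 in CD34+ and 0.312 and 0.282 in CD34- libraries by RPKM, below 1 in each. On the FPKM scale it was 1.02, 0.430, 0.535 and 0.556 in the same order, so that the level of these 2 transcripts relative to each other depended on the authors' scale. How amplification from the poly(A) tail bears on ratios between genes was not tested. The remaining fibrillar chains were lower in level. Col11a1, which joins type V and type XI trimers, was 59.2 and 95.8 against 85.4 and 126 CPM, with overlap (-0.45). Col27a1 was 163 and 40.0 against 70.9 and 47.5 CPM, with CD34+ replicate 1 above the other 3 libraries, and Col24a1 was 5.23 and 4.25 against 5.83 and 3.55 CPM.

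**Figure D3:**
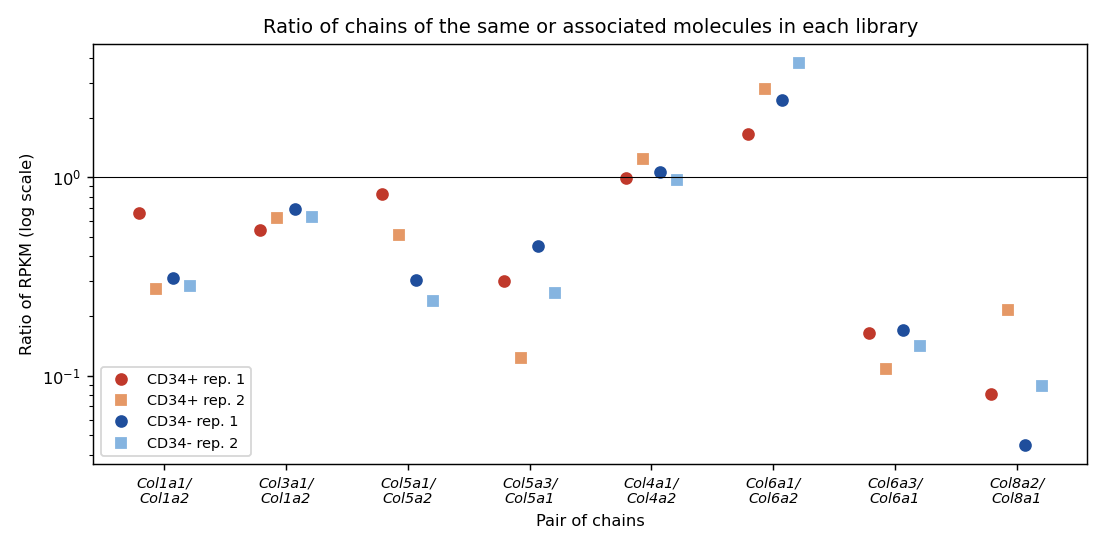
Ratio of the deposited RPKM of pairs of chains in each library (log axis, line at 1), with libraries coloured as in the plot of levels. Col5a1/Col5a2 separates the CD34+ libraries (0.821 and 0.513) from the CD34- libraries (0.305 and 0.238), and Col4a1/Col4a2 stays between 0.972 and 1.24 in all 4.

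Of the 3 FACIT chains with a mean of at least 100 CPM, Col14a1 and Col16a1 were higher and Col12a1 was lower in both CD34+ libraries. Col14a1, whose product binds the surface of type I fibrils, was 200.1 and 654 CPM in CD34+ against 68.2 and 112 CPM in CD34- cells (log2 fold change 2.24, SE 0.60, adjusted p = 0.216, edgeR; DESeq2 adjusted p = 0.00149). CD34+ replicate 2 was 3.27 times replicate 1, yet replicate 1 was still above both CD34- libraries, and the log2 fold change lay between 1.15 (without CD34+ replicate 2) and 2.83 over 16 alternatives. By RPKM it ranked 16 and 10 of the 43 chains in CD34+ cells and 20 and 19 in CD34- cells. Col12a1, the related chain that also binds type I fibrils, leaned the other way, at 948 and 457 CPM in CD34+ against 1047 and 1130.2 CPM in CD34- cells (log2 fold change -0.61, SE 0.43, adjusted p = 0.505). Col16a1 was 286 and 224 CPM in CD34+ against 182 and 183 CPM in CD34- cells (log2 fold change 0.50, SE 0.27, adjusted p = 0.401), above in both CD34+ libraries by counts, with a sign that turned on the FPKM scale (-0.26). Col20a1 was 14.6 and 6.37 CPM in CD34+ against 5.14 and 3.42 CPM in CD34- cells (log2 fold change 1.33, SE 0.53, adjusted p = 0.293), and its log2 fold change was 0.58 without CD34+ replicate 1. Without each library in turn that of Col12a1 lay between -1.27 (CD34+ replicate 1 left out) and -0.19 (CD34+ replicate 2 left out), and that of Col16a1 between 0.28 (CD34+ replicate 1 left out) and 0.66. As a class, 7 of the 9 FACIT chains had both CD34+ libraries above both CD34- libraries, beside 23.4% of all tested genes. Among them Col9a1, Col9a3, Col19a1 and Col22a1 had means under 5 CPM, a level at which 37.6% of all tested genes lay on this side. Of the 7, Col9a1, Col19a1 and Col22a1 passed the filter on low counts through the CD34+ libraries alone and could only lie on this side, so that the count is a description. The class's share of collagen counts was 3.10% and 3.33% in CD34+ against 2.37% and 2.9998% in CD34- libraries.

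Type IV collagen, the network of basement membranes, was lower in CD34+ cells in its 2 abundant chains. Col4a1 was 1223 and 1179.9 CPM in CD34+ against 2730.1 and 1516 CPM in CD34- cells (log2 fold change -0.78, SE 0.38, adjusted p = 0.359, edgeR) and Col4a2 was 1201 and 928 CPM in CD34+ against 2503 and 1515 CPM in CD34- cells (log2 fold change -0.88, SE 0.38, adjusted p = 0.318). For both genes all CD34+ values lay below all CD34- values, and the CD34- replicates were further apart than the CD34+ replicates. A negative sign in all 16 alternatives adds little to this separation. Without CD34- replicate 1 the log2 fold changes shrank to -0.42 and -0.59. The product of these genes is the alpha 1, alpha 1, alpha 2 trimer found in nearly all basement membranes. Their RPKM ratio was close to 1 throughout, at 0.989 and 1.24 in CD34+ and 1.06 and 0.972 in CD34- libraries.

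Col4a1 and Col4a2 lie head to head, and their RefSeq gene spans overlap by 22 bases at chr8:11312805-11312826 of GRCm38.p6, shown on the + strand because both genes start there; capitals mark GGGCGG.
Col4a1 and Col4a2 start: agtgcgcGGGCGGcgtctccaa

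The other type IV chains, of the trimers of kidney, lung and epithelial basement membranes, gave few counts. Col4a5 was 10.6 and 15.97 against 19.1 and 15.2 CPM, with overlap, and Col4a6, its head-to-head neighbour, was 2.52 and 2.27 against 2.57 and 0.820 CPM. Col4a3 was 3.20 and 3.37 against 0.303 and 1.85 CPM and Col4a4 1.65 and 1.90 against 0.757 and 1.503 CPM, both above in the CD34+ libraries by CPM, with log2 fold changes of 1.57 and 0.64. By RPKM the groups overlapped for Col4a4, and Col4a3 in CD34- replicate 1 rested on 4 counts. The class's share of collagen counts was 5.17% and 5.25% in CD34+ against 9.53% and 6.38% in CD34- libraries. Endothelial and mural cells also make type IV collagen. The 10 endothelial markers summed to 107 and 79.6 against 43.7 and 47.3 CPM, the opposite direction. Among them 8 had both CD34+ libraries above both CD34- libraries (23.4% of all tested genes did) and 2, Emcn and Esam, below (26.6%). Cdh5, Tie1 and Cldn5, of the 8, had means under 5 CPM, a level at which 37.6% of all tested genes lay above. Cldn5 passed the filter on low counts through the CD34+ libraries alone and could only lie above. The 8 pericyte markers summed to 393 and 315 against 489 and 565 CPM, the same direction as type IV. Of them Rgs5, Mcam, Higd1b and Ndufa4l2 had both CD34+ libraries below both CD34- libraries (26.6% of all genes), with Mcam at 27.9 and 16.5 against 103 and 103 CPM and Rgs5 at 2.13 and 7.33 against 45.5 and 89.7 CPM. Higd1b passed the filter on low counts through the CD34- libraries alone and could only lie below. Its mean was under 5 CPM, a level at which 12.2% of all tested genes lay below. The other 4 pericyte markers overlapped, with positive fold changes for Abcc9 (0.24), Kcnj8 (0.57) and Notch3 (0.40) and with Cspg4, the largest part of the sum, at 243 and 51.9 against 139 and 196 CPM. No endothelial or pericyte marker was at 0 in any library, and the part of these cells in the type IV values was not tested.

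Type VI collagen, the beaded filament that surrounds cells, gave 3 abundant chains with negative fold changes and 3 scarce chains with positive ones. Col6a1 was 948 and 929 CPM in CD34+ against 1967 and 1411 CPM in CD34- cells (log2 fold change -0.82, SE 0.33, adjusted p = 0.295, edgeR). Col6a3, the long chain whose cleaved end is the signalling peptide endotrophin, was 424 and 274 CPM in CD34+ against 908 and 547 CPM in CD34- cells (log2 fold change -1.02, SE 0.38, adjusted p = 0.279). Both separated the groups. That they also kept their sign in all 16 alternatives adds little to this separation. Col6a2 was 540.3 and 312 CPM in CD34+ against 749.6 and 351 CPM in CD34- cells (log2 fold change -0.32, SE 0.45, adjusted p = 0.736), overlapped, and turned sign without CD34+ replicate 2 (0.011) or CD34- replicate 1 (0.20). The RPKM ratio of Col6a1 to Col6a2 was 1.65 and 2.79 in CD34+ and 2.46 and 3.77 in CD34- libraries, and that of Col6a3 to Col6a1 was 0.164 and 0.108 in CD34+ and 0.169 and 0.142 in CD34- libraries, with overlap in both.

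The upstream 250 bases of Col6a1 and Col6a3 are shown because these chains of 1 trimer, on different chromosomes, both lay lower in CD34+ cells; they lie at chr10:76726045-76726294 (- strand) and chr1:90843972-90844221 (- strand) of GRCm38.p6. Neither window holds any of the 3 motifs on either strand, so that no base is in capitals.
Col6a1: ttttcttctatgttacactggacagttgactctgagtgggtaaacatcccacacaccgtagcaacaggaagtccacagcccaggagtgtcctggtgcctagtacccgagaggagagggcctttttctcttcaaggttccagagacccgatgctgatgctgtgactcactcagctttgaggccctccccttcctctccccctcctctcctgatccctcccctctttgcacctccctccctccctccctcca
Col6a3: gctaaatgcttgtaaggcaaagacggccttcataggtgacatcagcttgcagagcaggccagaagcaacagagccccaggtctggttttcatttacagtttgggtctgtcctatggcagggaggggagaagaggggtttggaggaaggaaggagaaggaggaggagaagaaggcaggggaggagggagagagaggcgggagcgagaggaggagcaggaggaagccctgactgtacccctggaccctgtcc

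The chains that can take the place of Col6a3 were a row of neighbouring genes, Col6a4, Col6a5 and Col6a6. Col6a5 was 5.33 and 108 CPM in CD34+ against 15.2 and 19.9 CPM in CD34- cells, so that 1 library held most of its reads; CD34+ replicate 2 was 20.2 times replicate 1. Its log2 fold change of 1.68 (SE 1.12) became -1.71 without CD34+ replicate 2. Col6a6 was 1.94 and 5.49 against 0.832 and 0.683 CPM (2.31, SE 0.67), and Col6a4 was 1.26 and 1.61 against 0.378 and 0.410 CPM (1.86, SE 0.58). In both genes the CD34+ libraries were above the CD34- libraries. The filter on low counts lay at 0.744 CPM, what 10 counts are worth in a library of median depth, and both Col6a4 values in CD34- cells were under it. The whole class had a share of collagen counts of 4.07% and 4.01% in CD34+ against 6.60% and 4.87% in CD34- libraries.

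**Figure D4:**
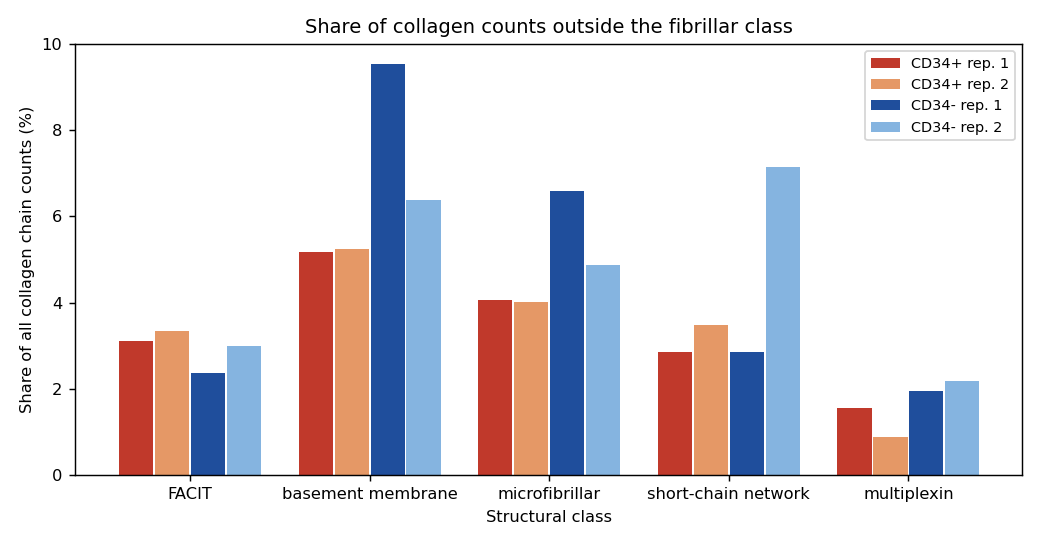
Share of all collagen chain counts (%) taken by 5 classes outside the fibrillar one, as bars from 0 for each library. The basement membrane and microfibrillar bars are higher in both CD34- libraries, and the short-chain network bar stands out in CD34- replicate 2 (7.15%) alone.

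Col10a1, the short chain of hypertrophic cartilage that is also made by tumour fibroblasts, had the most negative fold change of the 43 chains. It was 8.33 and 6.37 CPM in CD34+ against 32.1 and 279 CPM in CD34- cells (log2 fold change -4.44, SE 1.03, adjusted p = 0.183, edgeR; DESeq2 adjusted p = 0.0293). Both CD34+ libraries were far below both CD34- libraries, but CD34- replicate 2 was 8.71 times replicate 1, and the log2 fold change moved to -2.04 without it. By RPKM its rank among the chains was 26 in both CD34+ libraries, 21 in CD34- replicate 1 and 13 in CD34- replicate 2. The RefSeq span of Col10a1 overlaps that of Nt5dc1, and whether reads of the 2 genes were counted apart was not tested. Its upstream 250 bases, at chr10:34389731-34389980 (+ strand) of GRCm38.p6, are shown as those of the chain with the most negative fold change, with TATAAA in capitals 32 bases before the start.
Col10a1: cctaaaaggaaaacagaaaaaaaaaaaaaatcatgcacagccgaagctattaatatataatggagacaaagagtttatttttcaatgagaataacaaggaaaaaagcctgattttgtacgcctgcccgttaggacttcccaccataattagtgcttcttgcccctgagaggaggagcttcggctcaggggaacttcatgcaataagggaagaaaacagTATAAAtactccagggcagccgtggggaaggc

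Type VIII, the other short-chain network, is a collagen of vessel walls and of tissue under remodelling. Col8a1 was 1255 and 1186 CPM in CD34+ against 1479 and 2915 CPM in CD34- cells (log2 fold change -0.85, SE 0.45, adjusted p = 0.391, edgeR), with CD34- replicate 2 well above the other 3 libraries. Without that library its log2 fold change was nearer 0 (-0.19), and without CD34- replicate 1 it was -1.34. Col8a2 was 85.8 and 216 CPM in CD34+ against 56.4 and 221 CPM in CD34- cells (log2 fold change 0.10, SE 0.72, adjusted p = 0.958). The replicates of each group were further apart than the groups, with replicate 2 above replicate 1 in both.

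Multiplexins bridge basement membranes and the matrix beneath, and both lay lower in CD34+ cells. Col15a1 was 651 and 300.3 CPM in CD34+ against 953 and 960.4 CPM in CD34- cells (log2 fold change -0.98, SE 0.44, adjusted p = 0.328, edgeR), and Col18a1, the source of endostatin, was 80.3 and 57.4 CPM in CD34+ against 123 and 83.9 CPM in CD34- cells (log2 fold change -0.56, SE 0.30, adjusted p = 0.392). In each gene the groups were separated, Col18a1 by little. The sign held in all 16 alternatives, which adds little to this separation. The size moved with single libraries: without CD34+ replicate 1 the log2 fold changes were -1.68 (Col15a1) and -0.85 (Col18a1), and without CD34+ replicate 2 -0.54 and -0.34. Without CD34- replicate 1 they were -1.10 and -0.37, and without CD34- replicate 2 -0.91 and -0.75. Their joint share of collagen counts was 1.55% and 0.881% in CD34+ against 1.95% and 2.19% in CD34- libraries.

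Among transmembrane chains Col23a1 had the smallest adjusted p of any chain above 5 CPM. It was 20.2 and 22.9 CPM in CD34+ against 55.0 and 64.6 CPM in CD34- cells (log2 fold change -1.46, SE 0.25, adjusted p = 0.171, edgeR; DESeq2 adjusted p = 0.00339). The replicates of each group were close together, the groups were far apart, and its log2 fold change kept between -1.82 and -1.26 over 16 alternatives. Col13a1 (1.74 and 1.39 against 0.908 and 0.410 CPM), Col17a1, the hemidesmosome collagen of epithelia (0.872 and 1.10 against 1.51 and 0.342 CPM), and Col25a1 (1.07 and 0.879 against 0.227 and 0.957 CPM) stayed under 2 CPM in every library. Of the remaining 2 chains, Col28a1, a chain with domains like those of type VI, was 56.4 and 20.2 CPM in CD34+ against 10.97 and 10.8 CPM in CD34- cells (log2 fold change 1.84, SE 0.51, adjusted p = 0.216; DESeq2 adjusted p = 0.0145). Its CD34- libraries were nearly equal and both CD34+ libraries lay above them, and without CD34+ replicate 1 the log2 fold change was 0.88. Col7a1, the anchoring fibril collagen under epithelia, was 204 and 37.0 CPM in CD34+ against 111 and 159 CPM in CD34- cells (-0.14), with CD34+ replicates at both ends of the range. Epithelial markers summed to 556 and 302 against 489 and 239 CPM, higher in replicate 1 of both groups.

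Chains of cartilage fibrils gave few counts and differed among themselves in direction. Col2a1 and Col9a1 passed the filter on low counts through the CD34+ libraries alone, which fixed their direction. Col2a1, the main chain of cartilage, was 7.17 and 3.74 CPM in CD34+ against 0.0757 and 0.137 CPM in CD34- cells, that is 74 and 51 counts against 1 and 2. Summed by group and scaled to the total counts, this is a ratio of 48.4 (exact 95% interval 16.2 to 238, counting error only), and the fitted difference (5.56 on the log2 scale with SE 0.75, adjusted p = 0.155, edgeR; DESeq2 adjusted p = 4.57e-05) depends on the prior count. Col9a1 and Col9a3, which coat type II fibrils, were 3.29 and 1.10 against 0.151 and 0.137 CPM and 8.53 and 3.96 against 1.13 and 0.820 CPM, with log2 fold changes of 3.85 and 2.69. Their partner Col9a2 did not follow, at 1.94 and 1.83 against 1.66 and 3.28 CPM (-0.40), and Col11a2 overlapped at 4.94 and 1.61 against 1.74 and 0.957 CPM. Col9a3 overlaps Tcfl5 in span. Of the 8 cartilage and tendon markers, summed at 77.0 and 623 against 101 and 248 CPM, 5 had both CD34+ libraries above both CD34- libraries and 1 below, beside 23.4% and 26.6% of all tested genes. These 5 (Matn1, Matn3, Lect1, Scx and Tnmd) had means under 5 CPM, a level at which 37.6% of all tested genes lay on this side. Matn3, Lect1 and Tnmd passed the filter on low counts through the CD34+ libraries alone and could only lie on this side. Matn1 was not among the tested genes, so that the count of markers is a description. Comp, a fibril-binding matrix protein that gave most of the sum in the replicates numbered 2, was 18.6 and 570.3 against 14.5 and 161 CPM. Sox9 was 48.9 and 46.3 against 53.9 and 84.7 CPM, the cartilage proteoglycan Acan 3.20 and 0.806 against 29.7 and 0.205 CPM, and Matn1 0.872 and 0.440 CPM against 0 in both CD34- libraries. The part of any cartilage-like cell in these values was not tested. Col19a1 (1.07 and 1.32 against 0.303 and 0.0683 CPM) and Col22a1 (1.36 and 0.806 against 0.378 and 0.547 CPM), FACIT chains of few counts that passed the filter the same way, also lay higher in CD34+ libraries.

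Chains with high CPM were mostly lower and chains with low CPM mostly higher in CD34+ cells, where CPM also depends on gene length. Of the 18 chains with a mean of at least 100 CPM, 13 (72.2%) were negative on the log2 scale, their median being -0.30, and 10 (55.6%) had both CD34+ libraries below both CD34- libraries; among all 1799 tested genes of that level 54.0% were negative, with a median of -0.05, and 32.8% were below. Of the 9 chains between 5 and 100 CPM 5 were negative, with a median of -0.35 beside -0.10 over all genes of that level. Of the 16 chains under 5 CPM 15 were positive and 1 negative, with a median of 1.29; of the 3355 genes of that level 35.2% were negative, and their median was 0.37. All 43 chains passed the filter on low counts, but 5 of them (Col2a1, Col6a4, Col9a1, Col19a1 and Col22a1) did so through the CD34+ libraries alone and so had to be higher there, and 33 were above the filter level in all 4 libraries. The shares among low chains are therefore a description only.

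**Figure D5:**
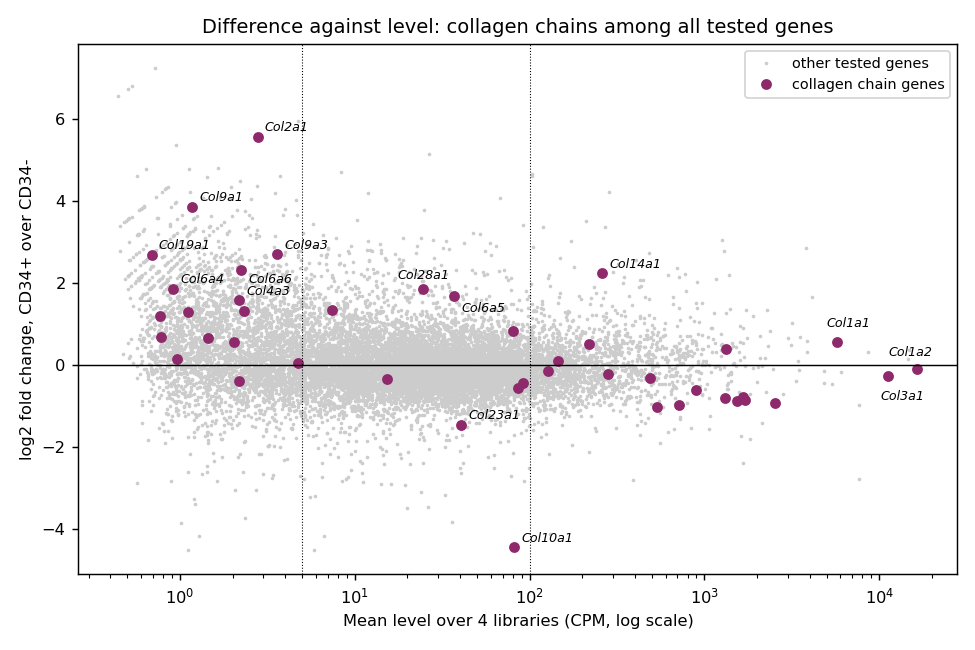
Log2 fold change, CD34+ over CD34- (edgeR), against mean level over the 4 libraries (CPM, log axis) for the 43 collagen chains (purple) among all other tested genes (grey), with dotted lines at 5 and 100 CPM. Abundant chains lie mostly below 0 (13 of 18 from 100 CPM), chains under 5 CPM above it (15 of 16), and the grey cloud also widens upward at low levels.

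Several chain genes are neighbours in the genome. In the RefSeq order of protein-coding genes on GRCm38.p6 there were 8 pairs of adjacent chain genes, and 7 had fold changes of the same sign, namely Col9a1 and Col19a1, Col3a1 and Col5a2 (-0.28 and -0.94), Col4a1 and Col4a2, Col4a3 and Col4a4, Col6a1 and Col6a2, and the row Col6a4, Col6a5 and Col6a6; Col4a5 and Col4a6 had opposite signs. This is a description only, since Col9a1, Col19a1 and Col6a4 passed the filter through the CD34+ libraries alone and neighbouring genes at large were not compared. The spans of Col4a1 and Col4a2 (by 22 bases) and of Col4a3 and Col4a4 overlap, and whether this bears on their counts was not tested. Promoter windows were found for 35 of the 43 genes (38 windows). In the 250 upstream bases GGGCGG was in 22 of 38 windows (57.9%) and in 32.7% of all 32851 windows, the CCAAT box in 34.2% and 33.8%, and TATAAA in 13.2% and 12.4%, each on either strand. A match is a match of letters only.

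The enzymes and chaperones that make collagen were mostly lower in CD34+ cells, as the abundant chains were. Of 18 genes for hydroxylation and folding 16 were negative on the log2 scale (median -0.54), 14 had both CD34+ libraries below both CD34- libraries and 2 above, beside 26.6% and 23.4% of all genes, and 0 passed after adjustment (edgeR). At an unadjusted p of 0.05, 4 were lower and 1 higher, beside 6.65% and 9.81% of all genes. The 1 higher gene, Colgalt2 (2.33 and 1.10 against 0.303 and 0.137 CPM), is also 1 of the 2 above. It passed the filter on low counts through the CD34+ libraries alone and could only be higher. P4ha1, a catalytic chain of prolyl 4-hydroxylase, was 137 and 179 CPM in CD34+ against 455 and 468 CPM in CD34- cells (log2 fold change -1.53, SE 0.29, adjusted p = 0.173). Plod1, a lysyl hydroxylase, was 109 and 126 against 288 and 230.4 CPM (log2 fold change -1.12, SE 0.25, adjusted p = 0.178), and P3h1, a prolyl 3-hydroxylase listed under an older name, was 172 and 159 against 357 and 282 CPM (log2 fold change -0.93, SE 0.26, adjusted p = 0.221). The gaps between groups in these 3 genes exceeded those between replicates.

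Genes that export and process procollagen went both ways, with 7 positive and 5 negative fold changes of 12. At an unadjusted p of 0.05, 2 were higher and 3 lower, beside 9.81% and 6.65% of all genes, and 0 passed after adjustment. Pcolce2, an enhancer of the removal of the C-terminal propeptide, was 76.7 and 97.5 against 29.7 and 39.8 CPM (log2 fold change 1.33, SE 0.29, adjusted p = 0.177, edgeR), and Adamts3, which cuts N-terminal propeptides, was 13.5 and 15.97 against 8.25 and 5.40 CPM. Sec23a, of the vesicle coat that carries procollagen, was lower in both CD34+ libraries, at 52.6 and 89.3 against 129 and 142 CPM. Of the 5 lysyl oxidase genes, which cross-link fibrils, Loxl3 was 119.6 and 113 against 361 and 365 CPM (log2 fold change -1.62, SE 0.26, adjusted p = 0.163), Loxl4 was 28.8 and 24.0 against 15.2 and 12.0 CPM (log2 fold change 0.98, SE 0.27, adjusted p = 0.217) and Loxl2 was 303 and 199 against 482 and 317 CPM. Loxl1 was 1048 and 1055 against 687 and 771 CPM and Lox 704 and 705 against 1028 and 826 CPM. Loxl1 and Loxl4 were thus higher and Lox, Loxl2 and Loxl3 lower in both CD34+ libraries, and 0 of 5 passed after adjustment. Collagen receptors were 6 positive and 3 negative of 9 tested, with 0 passing. The collagen-binding kinase gene Ddr1 was 60.8 and 36.8 against 31.2 and 27.0 CPM, and Itgb1, the shared beta chain of the collagen-binding integrins, was 604 and 606 against 967 and 1007 CPM. Itga2, its alpha 2 partner, overlapped at 16.4 and 4.91 against 8.70 and 2.26 CPM.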

How the data were processed

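RNA of 4 sorted libraries was sequenced. Per the submitters' processing notes, Bowtie2, TopHat2, HTSeq and edgeR were used on build mm9. The sources used here do not state tool versions, gene annotation or strand setting. The authors deposited whole-number read counts for 22609 genes, RPKM for the same genes, bias-adjusted FPKM for 22558 genes, and estimated counts of fragments that go with the FPKM (deposited by the authors, rounded here). The tables also hold 14 other sample columns each, which have no counterpart among the samples here and were left aside. The published data sets named in the design text were not analysed here.

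Counts were fitted with edgeR 4.0.16 (R 4.3.3): TMM scaling, filterByExpr, group as the only term, quasi-likelihood F test, two-sided, Benjamini-Hochberg over 13875 genes at 0.05; the test was tried on simulated counts. The standard error is the log2 fold change over the square root of F. CPM are counts over the library total, without TMM factors, which lay between 0.961 and 1.05. A count of 0 allows up to 3 counts, or 0.205 to 0.291 CPM by library. Ranks and ratios between genes use RPKM or FPKM; the bands of level use CPM, which is not scaled to gene length. Chains were described in full with a mean of at least 100 CPM, or of 5 CPM and no overlap between groups; in the pathway lists, up to 3 genes from 5 CPM with the smallest p. Cell type markers named singly, Lox, Loxl1 and Colgalt2 were chosen after their values were seen. Groups and replicate numbers come from the titles. Alternatives were DESeq2 1.42.0, limma 3.58.1 (voom, and log2 RPKM or FPKM), other scalings and filters, the block, and each library left out. No protein sequences were used. Members and lists were chosen with earlier results of these data known.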

Additional observations from a re-analysis of the deposited data

How the results depend on the processing

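Of 43 chains, 29 kept their sign in every alternative that gave a value and 14 turned in at least 1. For a chain whose groups do not overlap, leaving out a library could hardly turn the sign. The RPKM and FPKM scales, which moved the median of all tested genes below 0, favoured negative signs. A kept sign is therefore a description only. All genes called higher and lower numbered 0 and 0 in the edgeR quasi-likelihood fit, 352 and 199 by DESeq2, 194 and 137 without a filter on low counts, 20 and 31 by limma on log2 RPKM + 0.1, and 2 and 0 with scaling by library size or with a filter of 1 CPM in 2 libraries; without each library in turn they were 0 and 0. A replicate block in the edgeR fit gave 39 and 23 calls, 0 of them collagen chains. The differences between replicates 1 and 2 correlated across genes between the 2 groups (r = 0.24 over the tested genes, 0.22 over the 43 chains, genes not being independent replicates), but the design text, which speaks of duplicate experiments, does not tie the numbers to them, so that no pairing was taken from it. The median log2 fold change of the chains (0.15) was -0.029 on estimated fragment counts, -0.084 on log2 RPKM with either pseudocount or no filter, -0.26 on log2 FPKM + 1, and -0.11 to 0.46 without each library. The RPKM and FPKM scales moved the median of all tested genes to -0.31 (pseudocount 1), -0.42 (RPKM + 0.1) and -0.31 (FPKM), below those of the chains. DESeq2 and the fit without a filter had medians over all genes of 0.24 and 0.17.

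Leaving out each library moved Col1a1 between -0.24 and 1.05, Col5a1 between -0.10 and 0.72, Col5a3 between -1.66 and 0.46, Col6a2 between -0.81 and 0.20, Col7a1 between -1.89 and 0.60, and Col8a2 between -0.72 and 1.51. Col1a1 was -0.33, Col5a1 -0.15, Col8a2 -0.35 and Col16a1 -0.26 on log2 FPKM + 1. On log2 RPKM Col5a1 was -0.084 and Col8a2 -0.11, and Col8a2 was -0.15 on estimated fragment counts. The median of all tested genes was -0.31 on log2 FPKM + 1, with Col5a1 and Col16a1 above it and Col1a1 and Col8a2 below it. On log2 RPKM Col5a1 and Col8a2 lay above the median of all tested genes. The cause of these turns was not tested. The gap in the collagen share was -0.374 and -0.384 percentage points of summed RPKM and FPKM, -0.641 without Col1a2, and -0.388 to -1.13 without each library. With 2 libraries per group and 2 residual degrees of freedom the precision is low, and Col2a1 and Col19a1 in the CD34- libraries rest on 1 to 4 counts.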
